A study of Mus musculus with 4 samples.

Results

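Small nucleolar RNAs (snoRNAs) and small Cajal body RNAs (scaRNAs) were followed in mRNA-seq of LSK cells from mice, a fraction negative for lineage markers and positive for Sca-1 and c-Kit, which contains the haematopoietic stem cells. The members were all rows of the authors' TPM table (a share of a library's transcripts, corrected for their length) whose symbol is Snord, Snora or Scarna followed by a digit. The rule used no measured value and found 131 of 46517 rows, of which 82 were box C/D snoRNAs (Snord), 40 box H/ACA snoRNAs (Snora) and 9 scaRNAs (Scarna). The genotypes were Setd2D/D, the Setd2 knockout (2 libraries), and Setd2f/f, the control in which the floxed Setd2 gene is intact (2 libraries). All mice were C57BL/6 and 8 to 10 weeks old, and the molecule extracted was total RNA. The study's title asks how Setd2, the methyltransferase that trimethylates histone H3 at lysine 36 in transcribed gene bodies, acts on stem cell quiescence and differentiation through RNA polymerase elongation. The sources used here do not give which Cre line removed Setd2, which exons were removed, how many mice gave a library, whether strand was kept and how RNA was selected or sized. The labels do not place the libraries in separate mice, so the p-values below measure only how far the libraries differ, a spread that may be technical.

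Box C/D snoRNAs guide ribose methylation and box H/ACA snoRNAs guide pseudouridylation, mostly of ribosomal RNA, while scaRNAs guide the same changes in spliceosomal RNAs within Cajal bodies. Most mammalian snoRNAs lie in introns of host genes, often genes of ribosomal proteins or of noncoding Snhg transcripts, and are trimmed out of the excised intron. They carry no poly(A) tail, and libraries made for messenger RNA are not designed to hold them.

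The class names were checked against the sequences. In the GENCODE M21 transcripts (GRCm38, which is mm10), read on the transcript's own strand only, the C box letters TGATGA stood within the first 20 bases of 54 of 82 box C/D members (65.9%) and of 0 of 39 box H/ACA members compared. Among 8965 other transcripts of 60 to 300 bases the share was 0.759%. The D box letters CTGA stood within the last 20 bases of 80 box C/D members (97.6%), against 9.73% of the other transcripts. The letters ACA stood within the last 10 bases of 37 box H/ACA members (94.9%), against 13.4% of the other transcripts. ACA is short enough to be met often, and a missing match says only that these letters are not in the window. The sequences below are examples from the box C/D and H/ACA members named in the Results, 5′ to 3′, with capitals for these boxes. No scaRNA is among them, so Scarna17 is not shown.
Snord49b: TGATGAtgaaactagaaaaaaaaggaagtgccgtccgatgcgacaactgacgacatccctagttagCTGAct
Snord66: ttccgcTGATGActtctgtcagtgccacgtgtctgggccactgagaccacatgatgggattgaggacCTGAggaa
Snord89: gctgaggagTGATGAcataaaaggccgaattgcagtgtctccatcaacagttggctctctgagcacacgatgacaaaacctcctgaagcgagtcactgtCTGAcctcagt
Snord22: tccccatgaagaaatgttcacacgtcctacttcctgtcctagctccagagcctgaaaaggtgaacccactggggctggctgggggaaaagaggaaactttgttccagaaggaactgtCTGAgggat
Snora34: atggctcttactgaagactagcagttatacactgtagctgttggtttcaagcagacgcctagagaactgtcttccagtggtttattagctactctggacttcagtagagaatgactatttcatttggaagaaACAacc
Snora16a: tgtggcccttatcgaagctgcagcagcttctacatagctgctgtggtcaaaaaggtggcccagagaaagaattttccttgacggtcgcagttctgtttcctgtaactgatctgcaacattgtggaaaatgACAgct
Snora57: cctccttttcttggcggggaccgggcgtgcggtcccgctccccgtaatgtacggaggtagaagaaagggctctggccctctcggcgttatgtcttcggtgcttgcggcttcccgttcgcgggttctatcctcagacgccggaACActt
Snora73b: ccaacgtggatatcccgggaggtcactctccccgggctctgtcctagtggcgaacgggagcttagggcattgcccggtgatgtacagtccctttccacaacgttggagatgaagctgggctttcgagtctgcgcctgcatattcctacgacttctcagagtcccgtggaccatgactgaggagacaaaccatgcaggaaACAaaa
Snord49b (chr11:62603079-62603150, plus strand) has 72 bases and Snord66 (chr16:20684239-20684313, plus) has 75, and they fall on either side of the length at which the table begins to hold values. Snord89 (chr1:39548745-39548854, minus) has 110 bases and Snord22 (chr19:8725866-8725991, plus) has 126, and Snord22 holds the D box letters without TGATGA near its start. The H/ACA members are longer, Snora34 (chr15:98519716-98519853, minus) at 138 bases, Snora16a (chr4:132309465-132309600, plus) at 136, Snora57 (chr19:8888538-8888685, minus) at 148 and Snora73b (chr4:132352322-132352526, minus) at 205.

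Fewer than 1 in 3 members were above 0 in each library. In Setd2D/D replicates 1 and 2, 15 and 25 members were above 0 TPM, against 31 and 41 in Setd2f/f replicates 1 and 2. The lowest count fell in the library with the fewest genes of any kind, since 17185 and 19448 genes were above 0 in Setd2D/D and 19896 and 20192 in Setd2f/f. Members made up 0.0873% and 0.129% of the genes above 0 in Setd2D/D and 0.156% and 0.203% in Setd2f/f. Over the 4 libraries, 71 members were never above 0, 30 were above 0 in 1 library, 12 in 2, 14 in 3 and 4 in all 4. The 4 were Snord22, Snora57, Snora16a and Snora73b.

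The classes differed in how many members were seen at all. Of the box C/D members, 25 of 82 (30.5%) were above 0 in any library, with 9 and 9 in Setd2D/D and 8 and 17 in Setd2f/f. Of the box H/ACA members, 30 of 40 (75%) were, with 6 and 14 in Setd2D/D and 20 and 19 in Setd2f/f. Of the scaRNAs, 5 of 9 (55.6%) were, with 0 and 2 in Setd2D/D and 3 and 5 in Setd2f/f. A higher bar changed little at 1 TPM (15 and 23 members in Setd2D/D, 30 and 38 in Setd2f/f), while at 10 TPM the libraries came closer together, with 14 and 16 members in Setd2D/D and 16 and 19 in Setd2f/f. The extra members of the Setd2f/f libraries were thus mostly those under 10 TPM.

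**Figure D1:**
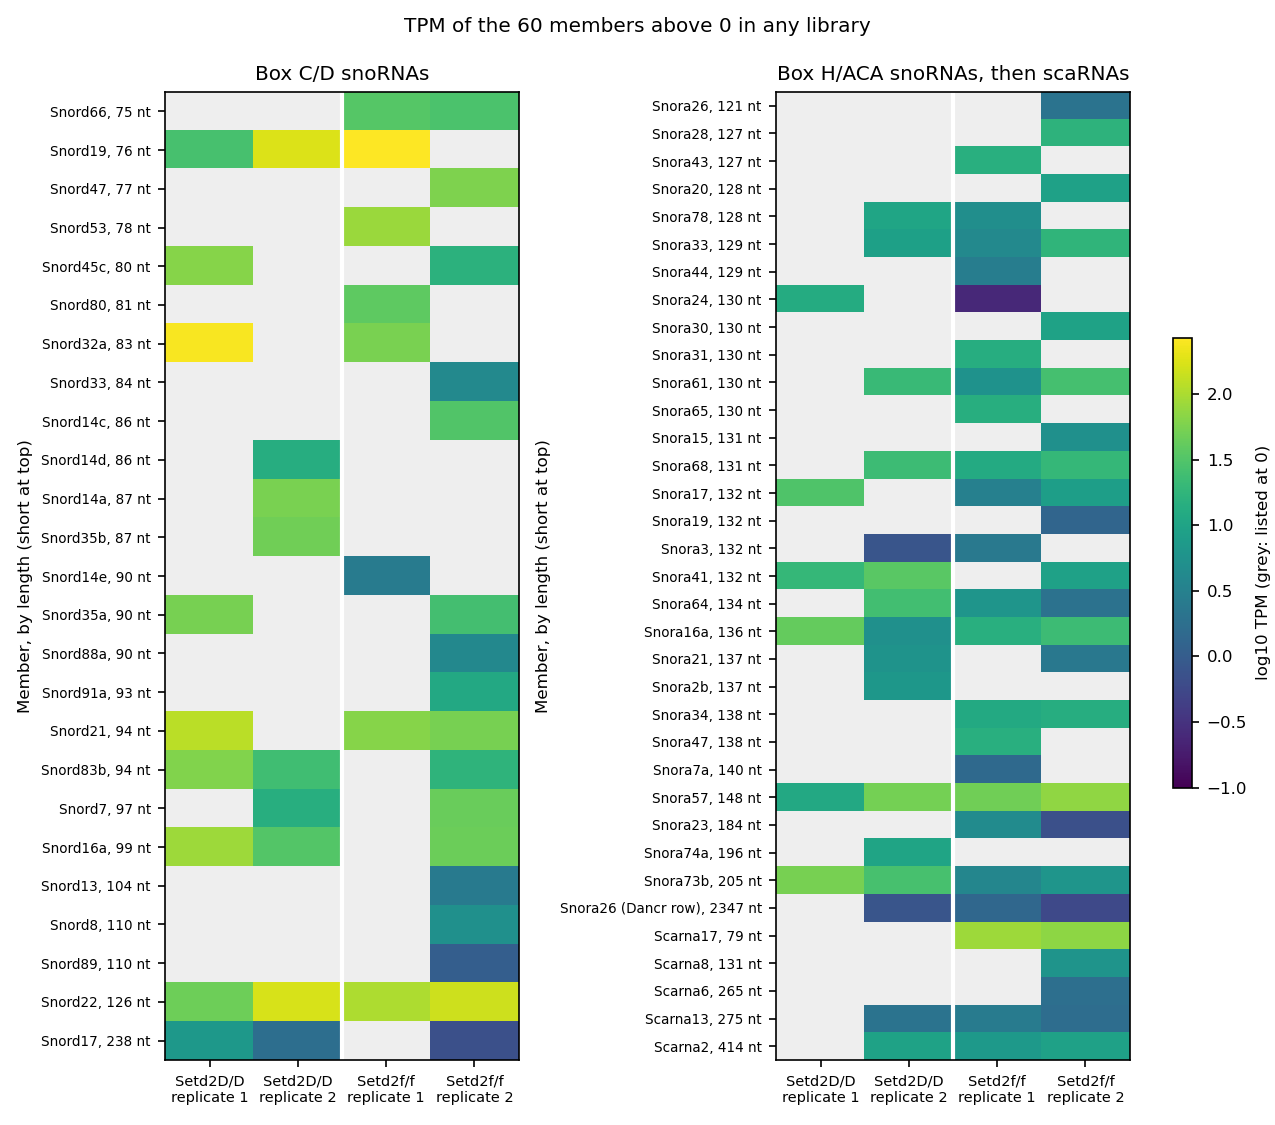
TPM (log10 colour scale, grey where listed at 0) of the 60 members above 0 in any library, by library on the x axis and by length within class on the y axis. Snord22, Snora57, Snora16a and Snora73b are coloured in all 4 libraries, most other members in 1 library, and the Setd2D/D replicate 1 column holds 15 coloured cells.

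Length set a sharp lower edge. Box C/D members had a median merged exon length of 79.5 nt (64 to 238 nt), box H/ACA members 132 nt (from 121 nt) and scaRNAs 140 nt (70 to 414 nt). None of the 34 members under 75 nt, 33 of them box C/D, was above 0 in any library, and neither was any of the 979 rows of the whole table under 75 nt. The shortest rows above 0 had 75 nt, the length of Snord66. Just above the edge, at 75 to 99 nt, 21 of 39 members (53.8%) were above 0, against 69 of 1337 other rows (5.16%). At 125 to 149 nt, where most H/ACA members lie, 27 of 40 members (67.5%) and 192 of 1179 other rows (16.3%) were. Members of 75 nt and more were thus above 0 more often than other rows of like length. Most box C/D members above 0 lay at 75 to 99 nt (20 of 38), where there were no H/ACA members. Where both classes had members of like length there were few of box C/D, with 1 of 4 above 0 at 125 to 149 nt against 25 of 33 H/ACA members, 3 of 6 against 1 of 1 at 100 to 124 nt, and 1 of 1 against 3 of 5 at 150 to 299 nt.

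**Figure D2:**
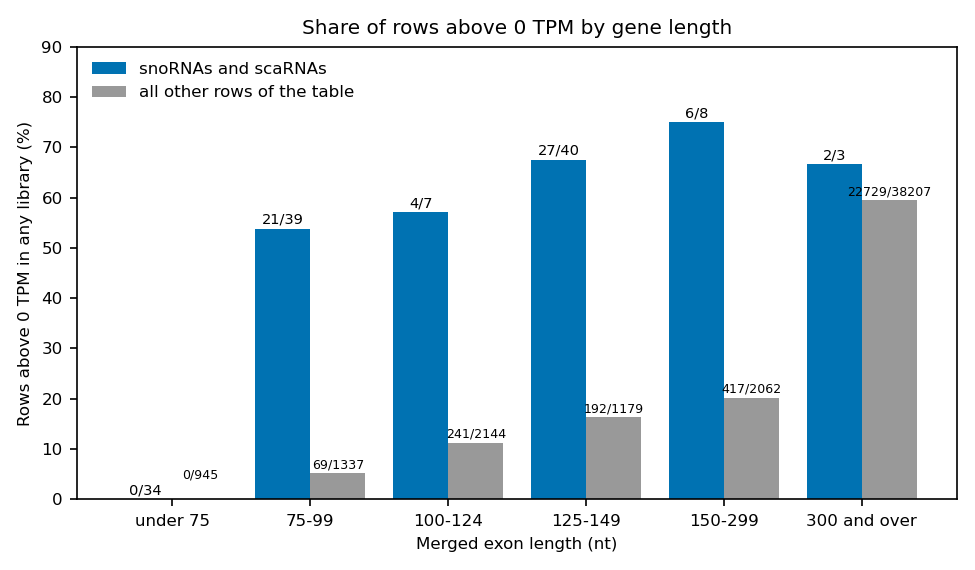
Share of rows above 0 TPM in any library (y axis, %) by merged exon length in nt (x axis), for snoRNAs and scaRNAs and for all other rows, with the counts on the bars. Both bars are at 0 under 75 nt, and from 75 nt the members' bar is the higher in every length class.

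A value of 0 TPM is not a measured absence. The authors' deposited table of the comparison holds 62 rows that are at 0 TPM in all 4 libraries, of which 34 of the 61 with a known length are under 75 nt. Snord49b, at 72 nt, is the only member among them. Its deposited log2 fold change (-2.16) and mean log2 CPM (-3.91, reads in CPM, with no division by length) equal those of Snord89, which is 110 nt long and listed at 1.05 TPM in Setd2f/f replicate 2 and 0 elsewhere. Snord49b therefore entered that table with an estimate above 0 that has no counterpart in TPM. A zero was also not limited to short genes, since Rps12, a ribosomal protein gene that every cell uses and the host of Snora33, was listed at 0 in all 4 libraries. For these reasons members at 0 are given library by library, and a fitted difference against a genotype at 0 depends on the pseudocount, so that it is no measure of size.

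TPM ranked these RNAs higher than CPM did. Across the rows of the authors' deposited table the median mean log2 CPM was 1.76, and across its 61 members it was -2.44, with 49 members below -1 and 5 above 0. The median box C/D member stood above 14.6% of all rows by CPM and above 63.4% by TPM. The median H/ACA member stood above 21.5% of rows by CPM and 49.6% by TPM, and the median scaRNA above 21.7% and 42.5%. Snord66 stood above 5.69% of rows by CPM and 65.9% by TPM, and Snord19 above 24.5% and 94.6%. Snord22 kept the highest place of all members by CPM, above 51.4% of rows. Members of unlike length had unlike TPM at equal CPM. Scarna8 (131 nt, 5.96 TPM in Setd2f/f replicate 2) and Scarna6 (265 nt, 1.79 TPM in the same library) have identical deposited log2 fold changes (-4.98) and log2 CPM (-3.06). Likewise Snord13 (104 nt) at 2.51 TPM and Snora19 (132 nt) at 1.30 TPM share -2.98 and -3.77.

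**Figure D3:**
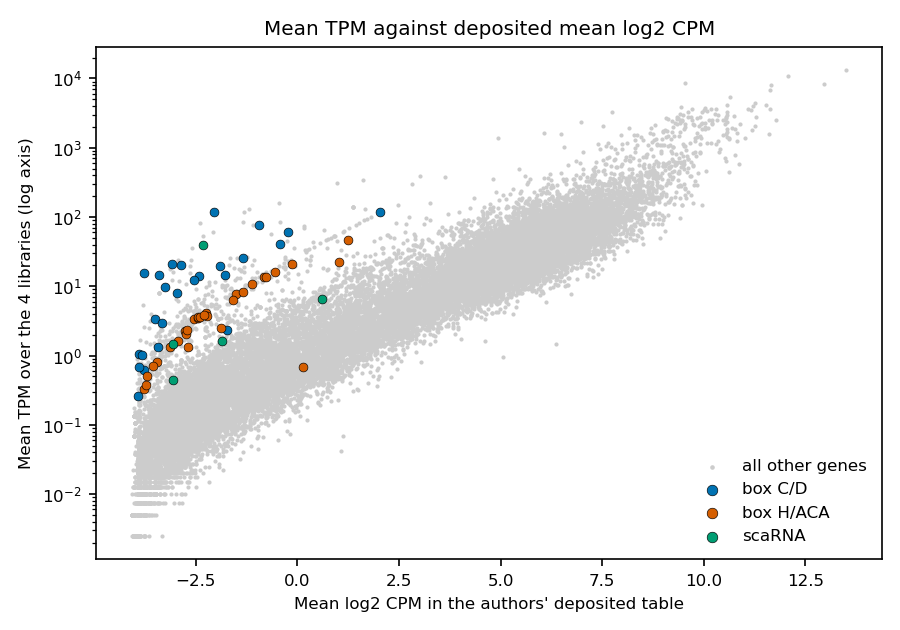
Mean TPM over the 4 libraries (y axis, log scale) against the mean log2 CPM of the authors' deposited table (x axis), 1 point per gene above 0 TPM. Box C/D members lie above the cloud of other genes, H/ACA members follow a narrow line near its upper edge, and 49 of the 61 members in that table have a log2 CPM below -1.

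TPM gives no depth, but the smallest common step of the deposited values gives a scale. Among rows above 0 in 1 library only, the commonest deposited log2 CPM lay between -3.91 and -3.87 for each library. Genes of at least 1000 nt at that step had a median product of TPM and length in kb of 0.0780 and 0.0491 in Setd2D/D and 0.0525 and 0.0455 in Setd2f/f. If that step is 1 read, Setd2D/D replicate 1 had 0.582 of the depth of Setd2f/f replicate 2, Setd2D/D replicate 2 had 0.926 and Setd2f/f replicate 1 had 0.866. Snord89 stands at that step in Setd2f/f replicate 2. The order of the steps and the order of the members above 0 agree in placing Setd2D/D replicate 1 lowest and Setd2f/f replicate 2 highest. Between these the orders differ. Setd2D/D replicate 2 had the greater relative depth (0.926 against 0.866) but fewer members above 0 than Setd2f/f replicate 1 (25 against 31).

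Replicates shared few members. The Setd2D/D libraries had 9 members above 0 in both, which is 60% of the 15 in replicate 1 and 36.0% of the 25 in replicate 2. The Setd2f/f libraries shared 17, which is 54.8% of 31 and 41.5% of 41. Across all genes the shares were 92.2% and 81.4% in Setd2D/D and 89.7% and 88.4% in Setd2f/f. Where a member was above 0 in both libraries of a genotype, the higher value was a median 3.59 times the lower in Setd2D/D and 1.54 times in Setd2f/f, against 1.28 and 1.21 times over all genes. Across genotypes, Setd2D/D replicate 1 shared 9 and 12 members with Setd2f/f replicates 1 and 2, and Setd2D/D replicate 2 shared 14 and 17. By members shared, box C/D was the least repeatable class in Setd2f/f. It shared 3 of 8 and 17, while H/ACA shared 11 of 20 and 19. In Setd2D/D box C/D shared 5 of 9 and 9, and H/ACA 4 of 6 and 14. Among members shared in Setd2f/f, the median ratio of higher to lower was 1.19 for box C/D and 2.44 for H/ACA.

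A high TPM did not bring repeatability. Of 22 members with a mean of at least 10 TPM, 4 (18.2%) were above 0 in all 4 libraries, against 98.5% of 9558 other genes at that level. Below a mean log2 CPM of -1, 0 of 49 members and 5.88% of 7858 other genes were above 0 in all 4. From -1 to 2.5, 4 of 12 members (33.3%) and 71.2% of 4948 other genes were. Snord32a, which in human guides methylation of both ribosomal subunits' RNA, had 253 and 0 TPM in Setd2D/D and 55.4 and 0 TPM in Setd2f/f. Snord19, which guides methylation of small-subunit rRNA in human, had 26.9 and 177 TPM in Setd2D/D and 271 and 0 TPM in Setd2f/f. Within each genotype 1 library lacked Snord32a, and Setd2f/f held both the highest Snord19 value and a zero.

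The libraries as a whole set the background for the genotype comparison. Setd2 itself had 43.4 and 49.5 TPM in Setd2D/D and 78.9 and 68.0 TPM in Setd2f/f, lower by 0.65 (SE 0.149) on the log2(TPM + 1) scale, with a limma adjusted p of 0.329 and an FDR of 5.84e-06 in the authors' deposited table. The table gives 1 value for the whole gene, so exons left in the transcript count towards it. Of the 6 LSK markers all were present, with Kit at 301 and 285 TPM in Setd2D/D and 224 and 249 TPM in Setd2f/f. Of the lineage markers, Cd3e and Cd8a were under 1 TPM in every library, and the haemoglobin gene Hbb-bs had 68.1 and 35.1 TPM in Setd2D/D against 4.2 and 0.56 TPM in Setd2f/f. In bulk samples fewer cells of a type and less RNA per cell cannot be told apart, and the part of other cells in the results below was not tested.

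More members were seen in Setd2f/f alone than in Setd2D/D alone. Of the 60 members above 0, 29 (48.3%) were above 0 only in Setd2f/f libraries, 5 (8.33%) only in Setd2D/D libraries and 26 (43.3%) in both, against 13.0%, 6.94% and 80.1% of the 23893 genes above 0 anywhere. The 5 were Snora2b, Snora74a, Snord14a, Snord14d and Snord35b, each above 0 in Setd2D/D replicate 2 alone. Of the 29, 25 were above 0 in 1 Setd2f/f library. The other 4, Scarna17, Snora23, Snora34 and Snord66, were at 0 in both Setd2D/D libraries and above 0 in both Setd2f/f libraries (6.67% of the members above 0, against 3.29% of all genes above 0), and the reverse pattern had 0 members (0.917% of all genes). Without Setd2D/D replicate 1 this count was 6, and without Setd2D/D replicate 2 it was 11, while over all genes it was 1247 and 2346, against 787 with both libraries. These are alternatives that were added after the data were seen. The number of genes above 0 put the libraries in the same order as the number of members above 0. The depth step put Setd2D/D replicate 1 lowest too, but placed Setd2D/D replicate 2 (0.926) above Setd2f/f replicate 1 (0.866). The part of either in this result was not tested.

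Of the 131 members, 26 passed the filter of at least 1 TPM in at least 2 libraries and entered the fit across all 14755 genes, 11 of them box C/D, 12 H/ACA and 3 scaRNA. The test was limma on log2(TPM + 1) with p adjusted over all genes. It called 10 genes (0.0678%), 7 lower in Setd2D/D (0.0474%) and 3 higher (0.0203%), and 2 of the 7 were members, Scarna17 and Snord66. No member was called higher. At an unadjusted p under 0.05 there were 6 members, against 11.2% of all genes tested. Of the 26, 7 had genotypes that did not overlap, against 44.3% of all genes tested. Other tested genes under 300 nt had 3 calls of 352 (0.852%). Of the tested members, 22 (84.6%) were at 0 in at least 1 library, against 7.73% of all genes tested, and their median SE was 1.34, against 0.243. The authors' deposited table placed 0 of 61 members past an FDR of 0.05, where it placed 754 of 23955 genes (3.15%), and 1 member, Snora73b, had a p under 0.05 there.

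Scarna17, a Cajal body RNA of 79 nt, was listed at 0 in both Setd2D/D libraries and at 85.05 and 71.5 TPM in Setd2f/f. Snord66, whose human counterpart guides methylation of small-subunit rRNA, was listed at 0 in both Setd2D/D libraries and at 33.6 and 29.0 TPM in Setd2f/f. The genotypes did not overlap for either, and both passed the filter through Setd2f/f alone. The limma differences were -6.30 (SE 0.25, adjusted p = 0.0210) for Scarna17 and -5.01 (SE 0.29, adjusted p = 0.0401) for Snord66, and both depend on the pseudocount of 1. The tied zeros of Setd2D/D add no spread to either SE, where the median SE of the members tested was 1.34. As a zero is no measured absence, these SEs and p-values do not measure how repeatable a loss is. In the authors' deposited table Scarna17 and Snord66 have an FDR of 0.687 and 0.885 and a mean log2 CPM of -2.33 and -3.76. The smallest common step there was -3.9 and -3.91 for rows above 0 in Setd2f/f replicate 1 or 2 alone. Snord66 lies close to that step, so few reads may underlie its TPM, and their number was not tested. Both calls were lost whenever any 1 library was left out, without the filter and with a replicate block, with adjusted p-values of 0.0773 to 0.949 for Scarna17 and 0.0546 to 0.949 for Snord66 over the settings that lost them. Among these, Snord66 was also lost with a pseudocount of 0.1 or 10 and with a filter at 5 TPM.

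Among the other box C/D members no difference passed the test. Snord22, which is needed for ribosomal RNA processing in Xenopus, had 47.2 and 169 TPM in Setd2D/D and 102 and 150 TPM in Setd2f/f. Its log2 difference was -0.46 (SE 0.62, adjusted p = 0.821), with the Setd2D/D values spanning those of Setd2f/f. Snord21, a large-subunit guide in human, had 121 and 0 TPM in Setd2D/D and 64.1 and 54.0 TPM in Setd2f/f. Snord16a, a small-subunit guide in human, had 85.4 and 32.4 TPM in Setd2D/D and 0 and 46.5 TPM in Setd2f/f. The genotypes overlapped for both, with log2 differences of -2.44 (SE 2.24) and 2.96 (SE 1.86) and adjusted p-values of 0.711 and 0.588. Snord83b had 60.8 and 24.2 TPM in Setd2D/D and 0 and 16.8 TPM in Setd2f/f, a difference of 3.23 (SE 1.42, adjusted p = 0.481). Snord17, the longest box C/D member at 238 nt, had 6.76 and 1.75 TPM in Setd2D/D and 0 and 0.69 TPM in Setd2f/f, a difference of 1.83 (SE 0.66, adjusted p = 0.433). Both Setd2D/D libraries were above both Setd2f/f libraries for these 2 members, with a zero in Setd2f/f replicate 1 each time. Snord45c had 64.1 and 0 TPM in Setd2D/D and 0 and 16.1 TPM in Setd2f/f, a difference of 0.96 (SE 2.37, adjusted p = 0.908). The tested box C/D members had a median log2 difference of 0.96, 7 above 0 and 4 below, against -0.06 over all genes tested (6217 above 0 and 8538 below). This median turned to -0.79 without the filter, -0.62 with a filter on the mean and -0.73 without Setd2f/f replicate 1.

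Among the H/ACA members no difference passed the test either, and 12 were tested. Snora73b, the U17-type RNA that acts in cleavage of the ribosomal RNA precursor, had 53.0 and 27.4 TPM in Setd2D/D and 3.8 and 6.24 TPM in Setd2f/f. The Setd2D/D libraries were both above the Setd2f/f libraries, and none of the values was 0. Its log2 difference was 2.73 (SE 0.40), with a limma adjusted p of 0.204, and the authors' deposited table gives 3.03 with an FDR of 0.226. Snora34, a large-subunit guide in human, was listed at 0 in both Setd2D/D libraries and at 12.0 and 13.6 TPM in Setd2f/f, so that it passed the filter through Setd2f/f alone. Its log2 difference of -3.78 (SE 0.33, adjusted p = 0.0859) depends on the pseudocount, and the adjusted p was 0.0385 without the abundance trend. The tied zeros of Setd2D/D add no spread to this SE either. Snora57, at 11.6 and 52.4 TPM in Setd2D/D and 49.0 and 73.6 TPM in Setd2f/f, overlapped between genotypes (difference -1.23, SE 0.71, adjusted p = 0.561). Snora16a had 41.6 and 5.26 TPM in Setd2D/D and 14.6 and 22.6 TPM in Setd2f/f, so that the Setd2D/D libraries held both the highest and the lowest value. Snora41 had 19.1 and 35.9 TPM in Setd2D/D and 0 and 9.12 TPM in Setd2f/f, a difference of 3.10 (SE 1.14, adjusted p = 0.436).

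A further group of H/ACA members was at 0 in Setd2D/D replicate 1 and above 0 in the other 3 libraries. Snora68 had 0 and 22.9 TPM in Setd2D/D and 12.7 and 19.2 TPM in Setd2f/f. Snora61 had 0 and 21.4 TPM in Setd2D/D and 5.54 and 26.7 TPM in Setd2f/f, and Snora33 had 0 and 8.89 TPM in Setd2D/D and 4.11 and 17.9 TPM in Setd2f/f. All 3 guide large-subunit pseudouridylation in human, and in each the Setd2D/D replicate 2 value lay within or above the Setd2f/f values. Their log2 differences, from -1.77 to -1.51, had adjusted p-values of 0.691, 0.762 and 0.656, and each was above 0 (0.52, 0.73 and 0.01) without Setd2D/D replicate 1. Snora21 had 0 and 5.83 TPM in Setd2D/D and 0 and 2.40 TPM in Setd2f/f (adjusted p = 0.9). The tested H/ACA members had a median log2 difference of -0.19, 5 above 0 and 7 below. Leaving out Setd2D/D replicate 1 turned this median to 0.63, and leaving out replicate 2 of that genotype gave -1.75.

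By TPM the scaRNAs other than Scarna17 were low, but Scarna17, at 79 nt, is divided by the smallest length among those above 0. By mean log2 CPM, Scarna2 (0.61) and Scarna13 (-1.85) stood above Scarna17 (-2.33), and Scarna6 and Scarna8 (both -3.06) below it. Scarna2, an independent gene of 414 nt, had 0 and 9.51 TPM in Setd2D/D and 7.09 and 9.26 TPM in Setd2f/f. Scarna13 had 0 and 2.04 TPM in Setd2D/D and 2.71 and 1.70 TPM in Setd2f/f. Setd2D/D replicate 2 was within or above the Setd2f/f range for both, and only replicate 1 was at 0. The log2 differences were -1.49 (SE 1.14, adjusted p = 0.654) for Scarna2 and -0.86 (SE 0.66, adjusted p = 0.656) for Scarna13. Without Setd2D/D replicate 1 the difference of Scarna2 was 0.21. Scarna8 was above 0 in Setd2f/f replicate 2 alone.

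Summed over a class, TPM did not separate the genotypes for snoRNAs. The box C/D sum was 718 and 537 TPM in Setd2D/D and 650 and 501 TPM in Setd2f/f, or 628 ± 128 against 576 ± 105 (SD, n = 2 libraries each). The H/ACA sum was 169 and 233 TPM in Setd2D/D and 186 and 246 TPM in Setd2f/f, or 201 ± 45.4 against 216 ± 42.4. Both differences, 52.1 and -15.2 TPM, turned round without Setd2D/D replicate 1 (-38.4 and 16.9) and had a 2-sided exact permutation p of 0.667, and 2 libraries against 2 cannot go below 0.33. The scaRNA sum was 0 and 11.6 TPM in Setd2D/D and 94.8 and 90.2 TPM in Setd2f/f, without overlap (exact permutation p = 0.333), and Scarna17 made up 89.7% and 79.3% of the Setd2f/f sums. The difference was -86.8 TPM with Scarna17 and -8.48 TPM without it. This weight of Scarna17 holds for TPM, since by mean log2 CPM (-2.33) it stood below the longer Scarna2 (0.61). Single members weighed heavily in the snoRNA sums as well. Snord32a was 35.3% of the box C/D sum in Setd2D/D replicate 1, and Snord19 was 33.0% in Setd2D/D replicate 2 and 41.6% in Setd2f/f replicate 1.

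By summed TPM, box C/D exceeded box H/ACA in every library. The ratio of the sums was 4.25 and 2.30 in Setd2D/D and 3.49 and 2.03 in Setd2f/f. On the log2 scale this was 1.65 ± 0.625 in Setd2D/D against 1.41 ± 0.55 in Setd2f/f (SD, n = 2 each), a difference of 0.23 with an exact permutation p of 0.667. Without Setd2D/D replicate 1 the difference was -0.21, and without Setd2f/f replicate 2 it was -0.16. The ratio is a ratio of TPM, in which the shorter class is divided by the smaller length, and 33 box C/D members under 75 nt add nothing to it. By mean log2 CPM, which has no division by length, the median member ran the other way. In the authors' deposited table it was -3.02 over 26 box C/D members and -2.35 over 30 H/ACA members. The excess in TPM is therefore not read as a difference in abundance between the classes.

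**Figure D4:**
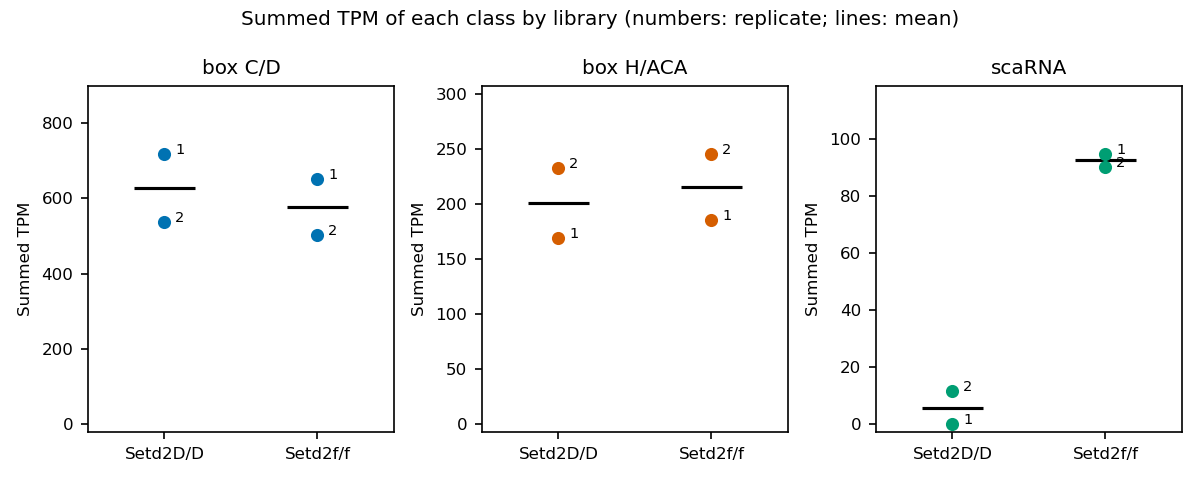
Summed TPM (y axis, from 0) of the box C/D, box H/ACA and scaRNA members in each library, with the replicate number beside each point and a line at the mean of the 2 libraries. The genotypes overlap for box C/D (501 to 718 TPM) and box H/ACA (169 to 246 TPM), and the scaRNA sums are 0 and 11.6 in Setd2D/D against 94.8 and 90.2 in Setd2f/f.

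The genes of the proteins that bind these RNAs did not pass the limma test. All 24 genes listed for snoRNP core, assembly, Cajal body and nucleolar proteins were tested, and 0 were called by limma (0.0678% of all genes tested), 1 had an unadjusted p under 0.05 (Npm1, against 11.2% of all genes), and the authors' deposited table placed 1 higher past its FDR (3.15% of all its genes). By mean over the libraries, levels ran from Nufip1, at 12.6 and 13.8 TPM in Setd2D/D and 12.3 and 12.2 TPM in Setd2f/f, to Npm1. Their median log2 difference was -0.03, from -0.44 to 0.35, with 9 above 0 and 15 below. Fbl, the methyltransferase of box C/D particles, had 178 and 253 TPM in Setd2D/D and 266 and 314 TPM in Setd2f/f, with no overlap (difference -0.44, SE 0.20, adjusted p = 0.486). Its partners Nop56, Nop58 and Nhp2l1 (also called Snu13) had differences of 0.02, 0.06 and -0.15. Dkc1, the pseudouridine synthase of H/ACA particles, had 251 and 249 TPM in Setd2D/D and 188 and 223 TPM in Setd2f/f (difference 0.29, SE 0.119, adjusted p = 0.466). Its partners Nop10, Nhp2 and Gar1 had differences of -0.03, 0.07 and -0.24. Npm1, a nucleolar chaperone, had 2511 and 2365 TPM in Setd2D/D and 1822 and 2015 TPM in Setd2f/f, a difference of 0.35 (SE 0.0977) with a limma adjusted p of 0.390, and the authors' deposited table gives 0.41 with an FDR of 0.028. Ncl, Pih1d1 and Znhit3 followed with differences of 0.29, -0.30 and -0.26.

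**Figure D5:**
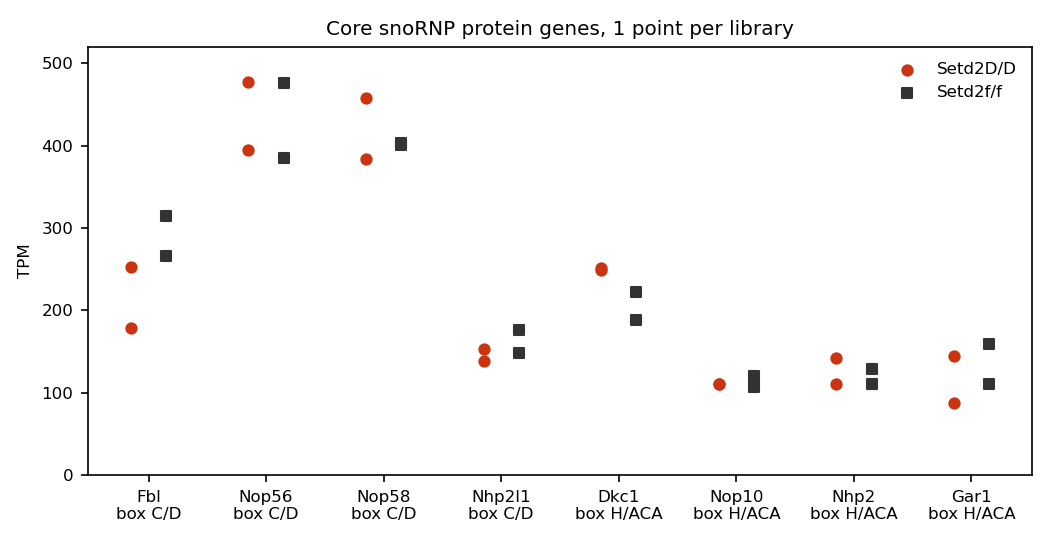
TPM (y axis, from 0) of the 8 core snoRNP protein genes, 1 point per library, Setd2D/D as circles and Setd2f/f as squares. Fbl lies lower in Setd2D/D (178 and 253 TPM) than in Setd2f/f (266 and 314 TPM), Dkc1 higher, and the other 6 overlap between genotypes.

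Most host genes were expressed whether or not the RNA inside them was seen. Among the exceptions, Rps12, the host of Snora33, and Htr2c, the host of Snora35, were listed at 0 TPM in every library. In GENCODE M21, 121 members lie in a gene on the same strand, 60 wholly in an intron and 61 over an exon of some transcript of the host, and 10 have no such host. Hosts of members above 0 had a median mean of 173 TPM (49 members with a host value), and hosts of members at 0 in all libraries had 245 TPM (69 members). The classes ran opposite ways, since box C/D members had hosts at 661 TPM when seen and 245 TPM when at 0, and H/ACA members had hosts at 157 and 470 TPM. The classes are not compared like for like here. All 33 box C/D members under 75 nt were at 0, and no H/ACA member is that short. Of the members at 0, 64 had a host of at least 10 TPM and 45 a host of at least 100 TPM. Of the 81 annotated hosts tested, 0 were called by limma, 8 had an unadjusted p under 0.05 (11.2% of all genes tested) and 2 passed the FDR of the authors' deposited table (3.15% of all its genes). The median host difference was 0.03, with 51 above 0 and 30 below, against -0.06, 6217 and 8538 over all genes tested. The second list, 29 rows of snoRNA host transcripts, had 26 tested, 0 called, 6 with an unadjusted p under 0.05, and a median of 0.15, with 21 above 0 and 5 below, to be read against the same 11.2%, -0.06 and counts of all genes. The authors' deposited table placed Rpl3 (FDR 9.37e-05) and Rian (FDR 5.73e-14) of that list higher in Setd2D/D. Zfas1, the annotated host of Snord12, is carried there under another symbol and so had no row in the second list. It was also higher in Setd2D/D there (log2 fold change 0.70, FDR 2.44e-05), and with Rpl3 makes up the annotated hosts past that FDR.

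No host of the members named above passed the test. Snhg3, the noncoding host of Snora73b, had 84.1 and 76.6 TPM in Setd2D/D and 47.5 and 49.3 TPM in Setd2f/f, a difference of 0.72 (SE 0.124, adjusted p = 0.245). Host and member were both higher in both Setd2D/D libraries, by 0.72 and 2.73 on the log2 scale, and neither passed. Snora73a, in the same host, was at 0 in all 4 libraries, and reads of such near-identical copies cannot be assigned with certainty. Eif4g1, the host of Snord66, had 225 and 237 TPM in Setd2D/D and 225 and 230 TPM in Setd2f/f (difference 0.02, adjusted p = 0.96). Snord66 lies over an exon of some transcript of Eif4g1, so its reads may come from the host, which was not tested. The same holds for the other members that lie over a host exon. Kansl2, the host of Snora34, had 57.0 and 78.2 TPM in Setd2D/D and 72.2 and 75.3 TPM in Setd2f/f (difference -0.14, adjusted p = 0.812). Scarna17, Scarna2 and Snora57 have no annotated host on their strand. Rpl3, the host of Snord83b, differed by 0.55 (adjusted p = 0.423).

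Members of 1 host appeared together in some libraries and apart in others. Snhg12 contains Snora16a, Snora44, Snora61 and Snord99. Snora16a was above 0 in all 4 libraries and Snora61 in 3 of them, while Snora44 had 2.82 TPM in Setd2f/f replicate 1 alone and Snord99 was at 0 throughout. Rpl13a, at 4430 and 4598 TPM in Setd2D/D and 3678 and 3789 TPM in Setd2f/f, contains Snord32a, Snord33, Snord34 and Snord35a. Snord35a had 53.0 and 0 TPM in Setd2D/D and 0 and 25.6 TPM in Setd2f/f, beside Snord32a in Setd2D/D replicate 1, and Snord33 had 4.15 TPM in Setd2f/f replicate 2 alone. Hspa8, at 2688 and 4498 TPM in Setd2D/D and 3278 and 3804 TPM in Setd2f/f, contains Snord14c, Snord14d and Snord14e. Each of these was above 0 in 1 library, and each in a different one, at 31.5 TPM in Setd2f/f replicate 2, 13.6 TPM in Setd2D/D replicate 2 and 2.72 TPM in Setd2f/f replicate 1. Kansl2 contains Snora34, seen in Setd2f/f, and Snora2b, seen in Setd2D/D replicate 2 alone at 6.47 TPM.

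One row needs a separate word. Of the 2 rows named Snora26, the longer (2347 nt) carries an identifier that GENCODE M21 gives to Dancr, a noncoding host transcript, and it had 0 and 0.81 TPM in Setd2D/D and 1.39 and 0.57 TPM in Setd2f/f. The short Snora26 row (121 nt) had 2.05 TPM in Setd2f/f replicate 2 alone. The longer row was kept by the rule, was not tested because it was under the filter, and adds at most 1.39 TPM to an H/ACA sum.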

How the data were processed

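For 4 libraries the authors deposited TPM of 46517 genes, and a comparison table of 23955 genes. There the authors gave the fold change both as a linear ratio and on the log2 scale, beside the mean log2 CPM. The authors' deposited table also has the F score of each gene with its p-value and FDR. The submitters' processing notes name mm10 as the build and cutadapt, RSEM and edgeR as tools, with neither role nor version. Gene names holding a comma had moved the fields of 5 rows of the first table and 2 of the second, and these were rejoined.

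No counts were held, so limma 3.58.1 in R 4.3.3 was fitted to log2(TPM + 1) with genotype as the 1 term (Setd2D/D minus Setd2f/f), variances moderated along an abundance trend. Tests were 2-sided, adjusted by Benjamini-Hochberg, with a threshold of 0.05. It covered all 14755 genes with 1 TPM or more in 2 or more libraries. The scale understates changes of low genes. Sums were compared by exact permutation. Lengths, hosts and sequences came from GENCODE M21 (GRCm38), which matched 46005 identifiers and all 131 members, 130 of them under the same name. A host was the shortest same-strand gene that contains the member and is no member itself.

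Members and lists were chosen with earlier results of these data known. The members named were those past the threshold, the 8 with the smallest p in each direction, and the highest by mean TPM (6 box C/D, 6 H/ACA, 4 scaRNA). Of the protein list all core genes and up to 4 others were named, with the hosts of named members. Other members are named as examples of a pattern, after their values were seen. One lineage marker is not reported here. Python 3.11.15, pandas 2.3.3 and scipy 1.17.1 were used for the rest.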

Additional observations from a re-analysis of the deposited data

How the results depend on the processing

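All values in this part come from alternatives to the limma fit or the sums, with the cause of each move not tested. The 2 calls among members (Scarna17, lower, and Snord66, lower) and the 10 among all genes became 1 and 3 with a pseudocount of 0.1, 1 and 4 with a pseudocount of 10, 0 and 0 with no filter, and 1 and 8 with a filter at 5 TPM. The call for box C/D members, 1 as reported, was 0 under each of these 4. The call for scaRNAs, 1 as reported, was 0 with no filter. Moderation without the trend gave 19 genes and 3 members, with 1 H/ACA call (Snora34). Scaling by trimmed means, median of ratios or quantiles, robust moderation and a filter on the mean kept 2 member calls. Leaving out any 1 library gave 0 calls for all genes, members, box C/D and scaRNAs, a range of 0 to 0, where the lone library is assumed to vary like the others.

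Replicate numbers are shared between genotypes in the labels, which do not say that they pair samples. Differences of replicate 1 minus replicate 2 correlated at r = 0.0414 over 14755 genes between the genotypes. With a replicate block there were 0 calls over all genes, members, box C/D and scaRNAs. The residual degrees of freedom fall to 1 in that fit.

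The median box C/D difference, 0.96 as reported, was -0.79 with no filter and -0.62 with a filter on the mean, and ran from -0.73 to 2.58 with a library left out. The median H/ACA difference, -0.19 as reported, was -1.23 with a pseudocount of 0.1, 0.08 with 10 and -1.42 with a filter on the mean, and ran from -1.75 to 0.63 with a library left out. The median scaRNA difference, -1.49 as reported, was -3.06 with a pseudocount of 0.1, -0.38 with 10, -3.90 with a filter at 5 TPM, and -3.19 to -0.06 with a library left out. Of the changes of named members, 281 values under alternatives kept direction and side of the threshold, 15 lost the call, 1 gained it and 15 turned round. All 15 that turned round came from leaving out a library, and over the 4 libraries left out in turn the members concerned ranged as follows. Scarna2 ran from -3.19 to 0.21, Snora33 from -3.29 to 0.01 and Snora68 from -4.06 to 0.52, each above 0 without Setd2D/D replicate 1. Snord22 ran from -1.37 to 0.45, Snora61 from -3.75 to 0.73 and Snord32a from -2.91 to 5.08, with the value turning without Setd2D/D replicate 1, and for Snord32a also without Setd2f/f replicate 2 (-1.82). Snord45c ran from -2.05 to 3.98 (-1.08 without Setd2f/f replicate 1) and Snora21 from -0.88 to 1.89 (-0.38 without Setd2f/f replicate 1). Snord21 ran from -5.90 to 1.02 and Snora16a from -1.61 to 1.15 (0.07 without Setd2f/f replicate 2), highest without Setd2D/D replicate 2. Snord19 ran from -1.95, without Setd2f/f replicate 2, to 6.14.

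The box C/D sum difference ran from -38.4 TPM, without Setd2D/D replicate 1, to 143 TPM, and was -22.5 without Setd2f/f replicate 2. The H/ACA difference ran from -47.3 to 16.9 TPM, above 0 without those same libraries (16.9 and 14.8) and without Snora57 (14.1). The log2 ratio difference ran from -0.21 to 0.67, and was -0.16 without Setd2f/f replicate 2. At 10 TPM the members seen were 16 in Setd2D/D replicate 2, and 16 and 19 in Setd2f/f. The count of members at 0 in Setd2D/D and above 0 in both Setd2f/f libraries was 6 and 11 without Setd2D/D replicate 1 and 2. A member listed at 0 TPM is not shown to be absent. No member under 75 nt was above 0 in any library, while many longer members were at 0 in some libraries and above 0 in others. The part of depth in the zeros was not tested.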
